A study of Mus musculus with 15 samples.

Results

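The RNAs of 10 elastic fibre genes were followed in mouse skin after bone marrow transplantation. They were chosen by name from what their proteins are known to do, with earlier results of these data known: Eln, which encodes elastin, the fibrillins Fbn1 and Fbn2, the microfibril-associated genes Mfap2, Mfap4 and Mfap5, the fibulins Fbln1, Fbln2 and Fbln5, and Emilin1. All 10 were found among the 56059 genes of the table, and all 10 passed the filter on low counts that left 18651 genes for testing.

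Elastic fibres give skin and vessel walls their recoil. They are built on a scaffold of microfibrils, which are bundles of fibrillin with associated glycoproteins, onto which elastin monomers are deposited with the help of fibulins and then joined by lysyl oxidases. In skin these proteins come mainly from dermal fibroblasts, with smooth muscle cells of vessels and of the hair erector muscle as further sources, and the fibres, once laid down, turn over slowly.

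The skin came from a model of sclerodermatous graft-versus-host disease, in which cells of an allogeneic graft attack the host. The 4 groups were allogeneic recipients given both Wnt-C59 (5 mg/kg) and belumosudil (150 mg/kg), called the combination (n = 4), allogeneic recipients given Wnt-C59 alone at that same dose (n = 4), allogeneic recipients given vehicle, which was 0.4% methylcellulose (n = 3), and syngeneic recipients given the same vehicle (n = 4). All recipients were transplanted and dosed by mouth daily from day 21 to day 49 after the transplant. Porcupine, which lipidates Wnt ligands so that cells can secrete them, is the target of Wnt-C59. Strain, sex, age and genotype are not given in the sources used here, and no label says that the libraries of a group came from separate animals, so p-values measure the spread between these libraries. Treated libraries are called by the number in their column (combination 2 to 5, and Wnt-C59 1, 2, 4 and 5), and the combination columns were assigned to their group by elimination.

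Total estimated counts lay between 18.99 and 28.78 M in the 8 treated libraries and between 16.26 and 20.39 M in the 7 vehicle libraries. The treated libraries also differed from the vehicle libraries in ways that no label names. Of the genes detected in a library, 44.8% to 60.6% had values with fractions in treated and 31.1% to 34.4% in vehicle libraries. The nuclear RNA Malat1, picked with its values known, was at 65.0 to 136 CPM in treated and at 1071 to 3501 CPM in vehicle libraries. CPM are counts per M (mega) of a library size scaled by TMM. Across 18227 genes, which are not independent replicates, GC content and the log2 fold change against allogeneic vehicle skin had a Spearman rho of 0.541 for the combination and 0.504 for Wnt-C59. Treatment and any batch along the same split cannot be told apart, so fold changes between treated and vehicle skin are also given with the trend on GC content removed where that changed a call or moved the fold by over 1.5 times. Combination 4 and combination 5 stood apart from the other combination libraries. Hair follicle markers, of which 14 of 15 were in the table, summed to 35141 and 5085 CPM in them, against 89.1 CPM in combination 2 and 78.7 CPM in combination 3. The 15 skeletal muscle markers summed to 3045 and 37.5 CPM in them, against 39045 CPM in combination 2 and 15470 CPM in combination 3. Some results for the combination, mainly those of the members, are therefore also given without these libraries. In such bulk skin, fewer cells of a type and less RNA per cell cannot be told apart. Skin identity held in every library, with the keratinocyte keratin Krt5 at 2724 CPM or more.

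Promoter sequences are shown for the members whose RNA was higher in a treated group than in allogeneic vehicle skin and for which a sequence was at hand, so that a reader can see what these genes do and do not share at their starts. In the RefSeq table of build GRCm38.p6, 6 of the 10 members were matched, with 9 windows of 250 bases upstream of a transcript start. Eln, Fbn2, Mfap4 and Mfap5 were not matched. The first-listed window of each gene is printed 5′ to 3′ on the strand of the gene. Capitals mark the GC box GGGCGG, the motif bound by Sp1, on either strand. Mfap2 lies at chr4:141010431-141010680 (+), Fbln5 at chr12:101819120-101819369 (−), Fbln1 at chr15:85205699-85205948 (+) and Fbn1 at chr2:125506439-125506688 (−).
Mfap2: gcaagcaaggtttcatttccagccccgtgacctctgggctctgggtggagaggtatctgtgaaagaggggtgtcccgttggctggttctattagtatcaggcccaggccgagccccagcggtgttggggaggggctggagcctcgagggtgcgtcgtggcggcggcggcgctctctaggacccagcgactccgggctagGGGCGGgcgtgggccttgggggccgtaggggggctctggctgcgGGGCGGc
Fbln5: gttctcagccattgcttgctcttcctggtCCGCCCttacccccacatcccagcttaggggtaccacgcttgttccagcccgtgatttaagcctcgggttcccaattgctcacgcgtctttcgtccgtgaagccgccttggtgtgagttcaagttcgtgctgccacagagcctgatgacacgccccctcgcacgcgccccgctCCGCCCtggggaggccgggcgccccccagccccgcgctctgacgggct
Fbln1: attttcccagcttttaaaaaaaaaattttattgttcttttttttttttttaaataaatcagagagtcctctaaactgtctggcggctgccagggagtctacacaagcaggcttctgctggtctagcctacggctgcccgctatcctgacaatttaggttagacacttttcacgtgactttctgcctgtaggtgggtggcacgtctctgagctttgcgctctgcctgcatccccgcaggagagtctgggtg
Fbn1: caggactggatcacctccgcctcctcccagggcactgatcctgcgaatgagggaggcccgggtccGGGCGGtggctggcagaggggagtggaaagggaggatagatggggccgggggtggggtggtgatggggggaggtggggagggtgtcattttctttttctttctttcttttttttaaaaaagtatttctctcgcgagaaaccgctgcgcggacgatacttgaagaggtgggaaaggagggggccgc
The Mfap2 window held 2 GC boxes, starting 51 and 7 bases before the transcript start, and the Fbln5 window held 2, starting 221 and 48 bases before it. The Fbn1 window held 1 such box, starting 185 bases before it, and the Fbln1 window held none. Of the 9 windows of members, 5 held the box, against 32.7% of all 32851 windows of that length in the table. Mfap2, Fbln1 and Fbln5 gave 2 windows each, so the windows are not separate genes. The 9 also include windows of Fbln2 and Emilin1, which did not pass in either treated group against allogeneic vehicle skin. The E box CANNTG was in 6 of the 9, against 66.2% of all windows. The TATA box TATAAA, present in 12.4% of all windows, was in 0 of the 9, and the AP-1 motif TGANTCA, present in 6.75%, was also in 0 of the 9. All motifs were searched on both strands, and a match describes these letters only.

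Allogeneic skin was set against syngeneic skin, both under vehicle, to see how the graft-versus-host reaction changed the genes. Elastin fell, and with it the microfibril-associated genes Mfap2 and Mfap4. These 3 of the 10 members passed the test, all lower in allogeneic skin, where 29.8% of all tested genes passed, 14.6% higher and 15.1% lower. The median log2 fold change was −0.37 over the 10 members and −0.07 over all tested genes. The fibulins, Fbn1, Mfap5 and Emilin1 did not pass. In 4 members every allogeneic library lay below every syngeneic library, which was also so for 19.9% of all tested genes, and in the other 6 the groups overlapped.

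Eln, the gene of the elastic core, had 33.8, 30.4 and 45.1 CPM in allogeneic skin, against 81.6, 67.6, 143 and 61.4 CPM in syngeneic skin. The allogeneic libraries all lay lower, and syngeneic 3 was well above the other syngeneic libraries. The log2 fold change was −1.28 (SE 0.30, adjusted p = 0.0048). With an adipocyte score as a covariate it was −1.04 (adjusted p = 0.085). That fit called 16.9% of all tested genes in this comparison, against 29.8% in the main fit.

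Mfap4 is a glycoprotein that binds elastin, fibrillin and lysyl oxidase and takes part in fibre assembly. It had 8.81, 12.2 and 6.31 CPM in allogeneic skin, against 93.8, 58.1, 124 and 57.0 CPM in syngeneic skin. The groups were far apart, and the fall, −3.19 (SE 0.51, adjusted p = 0.00052) on the log2 scale, was the largest among the members. Mfap2, which encodes MAGP-1, a protein of the microfibril that also binds elastin, had 5.83, 4.73 and 1.63 CPM in allogeneic skin, against 17.1, 11.7, 30.7 and 24.5 CPM in syngeneic skin. Its log2 fold change was −2.37 (SE 0.47, adjusted p = 0.0019), and the groups did not overlap. Mfap5 encodes MAGP-2, the other member of that small family. It had 19.3, 33.8 and 14.1 CPM in allogeneic skin and 20.0, 19.3, 33.0 and 19.8 CPM in syngeneic skin, with the groups mixed and a log2 fold change of −0.04 (adjusted p = 0.95).

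Fbn1, the main fibrillin of adult microfibrils, had 83.3, 76.0 and 93.9 CPM in allogeneic skin and 119, 109, 189 and 89.5 CPM in syngeneic skin. Allogeneic 3 exceeded syngeneic 4, and the log2 fold change of −0.58 (SE 0.27, adjusted p = 0.12) did not pass. Fbn2, the fibrillin best known from developing tissue, was scarce, with 3.10, 1.56 and 1.80 CPM in allogeneic skin and 9.54, 7.70, 8.24 and 5.82 CPM in syngeneic skin. These groups did not overlap, yet the log2 fold change of −1.86 (SE 0.78, adjusted p = 0.087) did not pass. In a fit of these 2 groups alone the adjusted p was 0.0029, with DESeq2 it was 0.034 and with limma-voom 0.020.

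Among the fibulins, Fbln5, which tethers elastin to microfibrils and to cell surface integrins, was nearly level. It had 34.6, 24.9 and 39.9 CPM in allogeneic skin and 38.4, 28.3, 34.3 and 34.7 CPM in syngeneic skin, a log2 fold change of −0.04 with a 95% interval of −0.42 to 0.35 (adjusted p = 0.91). Fbln1, a fibulin found in elastic fibres and basement membranes, had 40.5, 24.4 and 58.9 CPM in allogeneic skin and 42.9, 34.3, 71.4 and 34.8 CPM in syngeneic skin, with a log2 fold change of −0.15 (adjusted p = 0.79). The groups overlapped for both genes. Fbln2, which links elastic fibres with basement membrane and proteoglycan partners, varied widely within allogeneic skin, with 183, 58.1 and 130.2 CPM there and 86.9, 64.0, 113 and 65.6 CPM in syngeneic skin. Its log2 fold change was 0.59 (adjusted p = 0.22), and without allogeneic 2, the lowest library of all, it was 0.96 (adjusted p = 0.038). Emilin1, a glycoprotein at the interface of elastin and microfibrils, had 30.6, 20.2 and 35.7 CPM in allogeneic skin and 17.98, 10.7, 27.7 and 14.5 CPM in syngeneic skin. It was on the side opposite to Eln, at 0.70 (adjusted p = 0.094), and the log2 fold change was 1.00 (adjusted p = 0.018) without syngeneic 3, the highest syngeneic library, and 1.21 (adjusted p = 0.0093) with the GC trend removed.

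**Figure D1:**
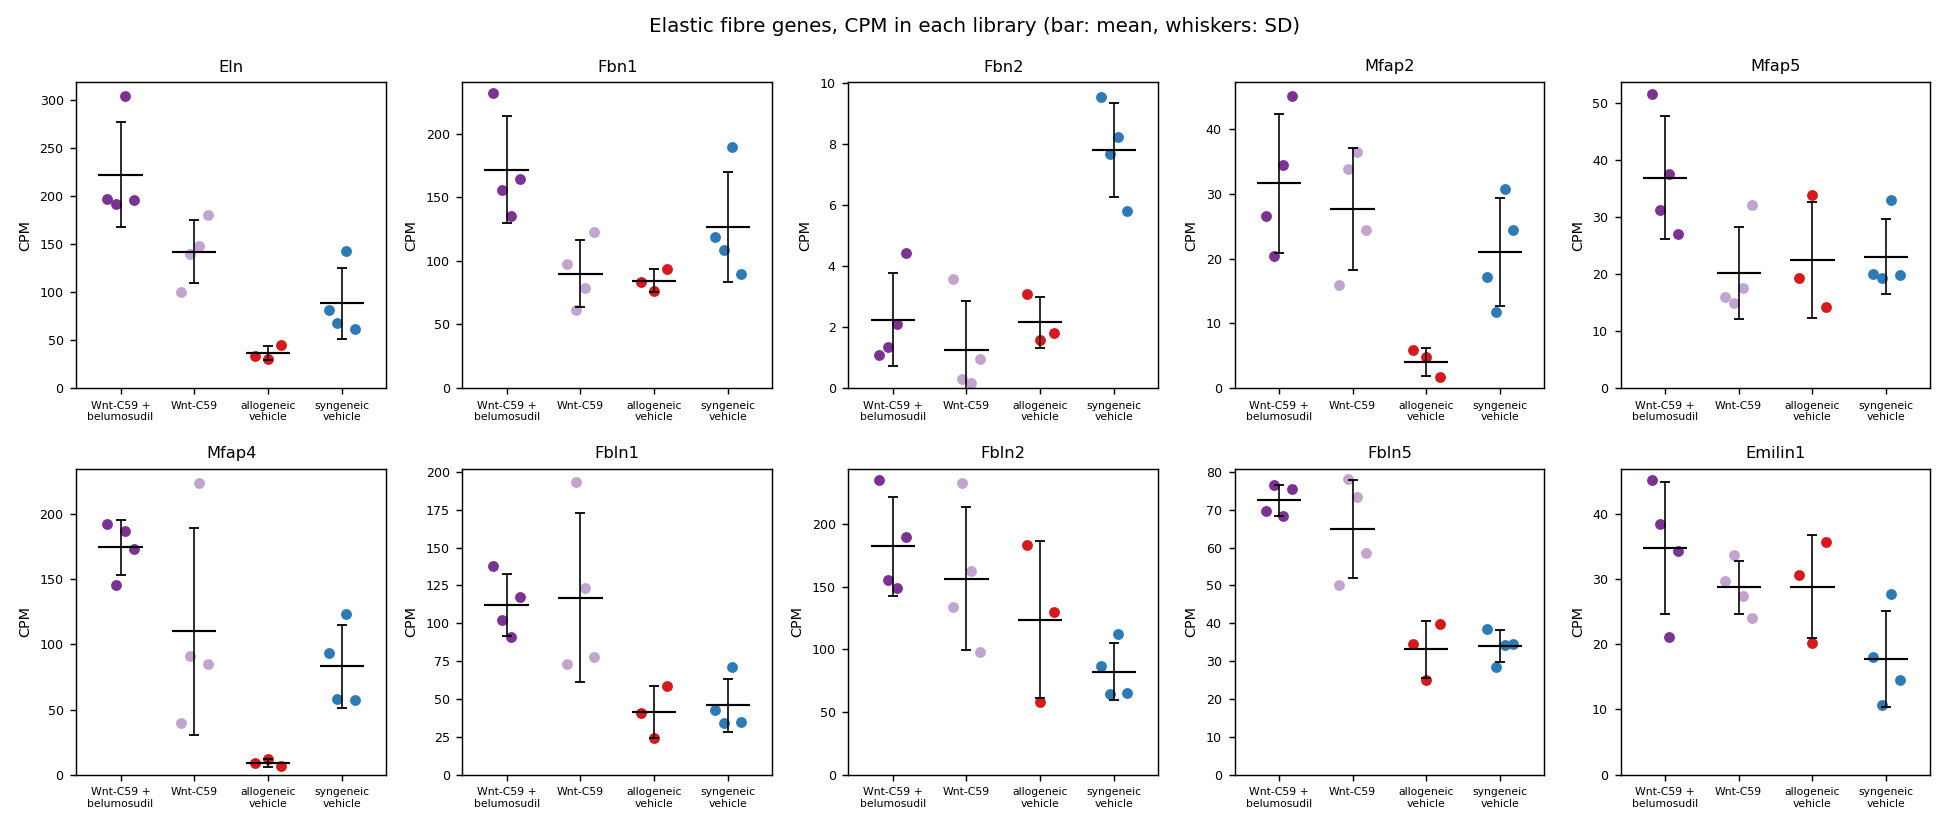
Each panel plots one member, with CPM on the vertical axis and a point per library in the combination, Wnt-C59, allogeneic vehicle and syngeneic vehicle groups. Eln reaches 192 to 305 CPM in the combination and stays at 30.4 to 45.1 CPM in allogeneic vehicle skin, and Mfap4 in allogeneic vehicle skin does not exceed 12.2 CPM.

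Each treated group was then set against allogeneic vehicle skin, to ask which members the inhibitors changed in diseased skin. The 3 genes that were low in allogeneic skin, Eln, Mfap2 and Mfap4, were much higher in both treated groups. Fbln1 and Fbln5, which had not passed between allogeneic and syngeneic skin, were also higher in both, and Fbn1 was higher with the combination. With the combination, 6 of the 10 members rose and 0 fell, where 54.5% of all tested genes passed, 27.1% higher and 27.4% lower. With Wnt-C59, 5 of the 10 rose and 0 fell, where 50.8% of all tested genes passed, 24.6% higher and 26.2% lower. Both comparisons use the same 3 allogeneic libraries, so their agreement is no second test, and Eln, Mfap2 and Mfap4 were also low in those libraries in the comparison with syngeneic skin.

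The 6 members that rose with the combination were also those whose libraries all lay above the allogeneic ones, which was so for 25.6% of all tested genes. The same held for the 5 with Wnt-C59, against 26.4% of all tested genes. The median log2 fold change over the members was 1.08 for the combination, against 0.01 over all tested genes, and 0.66 for Wnt-C59, against 0 over all tested genes. Once the GC trend was removed, 5 members rose with the combination, Fbln1 being lost, and 43.7% of all tested genes passed. In that fit 5 rose and 1, Emilin1, fell with Wnt-C59, and 40.4% of all tested genes passed. Without combination 4 and 5, 6 members rose with the combination, where 47.9% of all tested genes passed in either direction. In that fit the log2 fold change was 4.23 for Mfap4, 2.53 for Mfap2, 1.55 for Fbln1 and 1.16 for Fbln5.

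Eln had 197, 192, 305 and 196 CPM in the combination and 100, 139.6, 149 and 181 CPM under Wnt-C59, against 33.8, 30.4 and 45.1 CPM in allogeneic vehicle skin. Combination 4 was the highest library, and even the lowest treated library, Wnt-C59 1, was above all allogeneic vehicle libraries. The log2 fold change against allogeneic vehicle skin was 2.61 (SE 0.31, adjusted p = 1.7e-05) for the combination, a 6.11-fold level, and 1.97 (SE 0.30, adjusted p = 0.00013) for Wnt-C59, a 3.91-fold level. With the GC trend removed these were 1.75 (adjusted p = 0.00024) and 1.23 (adjusted p = 0.0025), and the first was 2.43 without combination 4 and 5.

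Mfap4 had 193, 146, 187 and 173 CPM in the combination and 40.0, 91.4, 224 and 84.6 CPM under Wnt-C59, against 8.81, 12.2 and 6.31 CPM in allogeneic vehicle skin. The combination libraries lay close together, while the Wnt-C59 libraries spread widely, with Wnt-C59 4 the highest and Wnt-C59 1 the lowest. The log2 fold changes were 4.26 (SE 0.54, adjusted p = 3.5e-05) for the combination and 3.596 (SE 0.52, adjusted p = 0.00012) for Wnt-C59. The second was 2.98 without Wnt-C59 4. Removing the GC trend gave 3.86 (adjusted p = 9.2e-05) and 3.20 (adjusted p = 0.00029).

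Mfap2 had 26.5, 20.3, 34.5 and 45.1 CPM in the combination and 15.9, 33.9, 36.6 and 24.4 CPM under Wnt-C59, against 5.83, 4.73 and 1.63 CPM in allogeneic vehicle skin. The groups did not overlap, and combination 5 was the highest library. The log2 fold changes were 2.96 (SE 0.48, adjusted p = 0.00017) for the combination and 2.77 (SE 0.47, adjusted p = 0.00033) for Wnt-C59, and 2.05 (adjusted p = 0.002) and 1.96 (adjusted p = 0.0029) with the GC trend removed. Its relative Mfap5 had 51.6, 31.3, 37.6 and 26.9 CPM in the combination and 15.99, 14.9, 17.6 and 32.1 CPM under Wnt-C59, against 19.3, 33.8 and 14.1 CPM in allogeneic vehicle skin. Allogeneic 2 lay within the combination range, and the log2 fold changes of 0.72 (adjusted p = 0.091) for the combination and −0.15 (adjusted p = 0.74) for Wnt-C59 did not pass. Without allogeneic 2 the first was 1.15 (adjusted p = 0.018).

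Fbn1 had 232, 156, 135 and 165 CPM in the combination and 97.5, 61.3, 78.3 and 123 CPM under Wnt-C59, against 83.3, 76.0 and 93.9 CPM in allogeneic vehicle skin. Every combination library lay above the allogeneic ones, whereas the Wnt-C59 libraries lay on both sides of them. It rose with the combination, by 1.02 (SE 0.27, adjusted p = 0.0057) on the log2 scale, and did not pass with Wnt-C59, at 0.09 (SE 0.27, adjusted p = 0.8). Without the GC trend the combination value was 0.75 (adjusted p = 0.037), without combination 4 and 5 it was 1.21, and with an adipocyte score as a covariate it was 0.48 (adjusted p = 0.51). The fit with that covariate called 18.5% of all tested genes in this comparison, against 54.5% in the main fit. Fbn2 stayed scarce, at 1.09, 1.35, 2.09 and 4.43 CPM in the combination and 3.59, 0.298, 0.156 and 0.951 CPM under Wnt-C59, against 3.10, 1.56 and 1.80 CPM in allogeneic vehicle skin. Its log2 fold changes were 0.06 (adjusted p = 0.96) and −0.78 (adjusted p = 0.42). Without Wnt-C59 1, the highest of its group, the second was −2.17 (adjusted p = 0.011).

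Fbln5 gave the tightest values of the fibulins, 69.6, 76.5, 68.4 and 75.5 CPM in the combination and 50.03, 78.1, 73.3 and 58.6 CPM under Wnt-C59, against 34.6, 24.9 and 39.9 CPM in allogeneic vehicle skin. It rose by 1.13 (SE 0.18, adjusted p = 0.00016) with the combination and by 0.97 (SE 0.18, adjusted p = 0.00059) with Wnt-C59 on the log2 scale. Both values were larger without the GC trend, 1.44 (adjusted p = 8e-05) and 1.25 (adjusted p = 0.00022). Fbln1 had 138, 102, 90.8 and 118 CPM in the combination and 73.2, 193, 123 and 78.0 CPM under Wnt-C59, against 40.5, 24.4 and 58.9 CPM in allogeneic vehicle skin. All treated libraries lay above the allogeneic ones, with Wnt-C59 2 the highest, and the log2 fold changes were 1.44 (SE 0.38, adjusted p = 0.0059) and 1.503 (SE 0.38, adjusted p = 0.0051). With the GC trend removed they were 0.92 (adjusted p = 0.051) and 1.03 (adjusted p = 0.034), and with an adipocyte score as a covariate they were 1.21 (adjusted p = 0.25) and 1.31 (adjusted p = 0.15). With that covariate 18.5% and 19.8% of all tested genes passed, against 54.5% and 50.8% in the main fit.

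Fbln2 and Emilin1 did not pass in either treated group. Fbln2 had 235, 155, 149 and 190.0 CPM in the combination and 134, 233, 162 and 97.6 CPM under Wnt-C59, against 183, 58.1 and 130.2 CPM in allogeneic vehicle skin, with log2 fold changes of 0.56 (adjusted p = 0.2) and 0.34 (adjusted p = 0.45), and of −0.18 and −0.32 with the GC trend removed, neither of which passed. Emilin1 had 45.1, 38.5, 21.1 and 34.3 CPM in the combination and 29.7, 33.6, 27.4 and 24.0 CPM under Wnt-C59, against 30.6, 20.2 and 35.7 CPM in allogeneic vehicle skin. The groups overlapped for both genes. For Emilin1 the log2 fold changes were 0.27 (adjusted p = 0.47) for the combination and −0.01 (adjusted p = 0.99) for Wnt-C59, and with the GC trend removed they were −0.70 (adjusted p = 0.083) and −0.85 (adjusted p = 0.041).

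**Figure D2:**
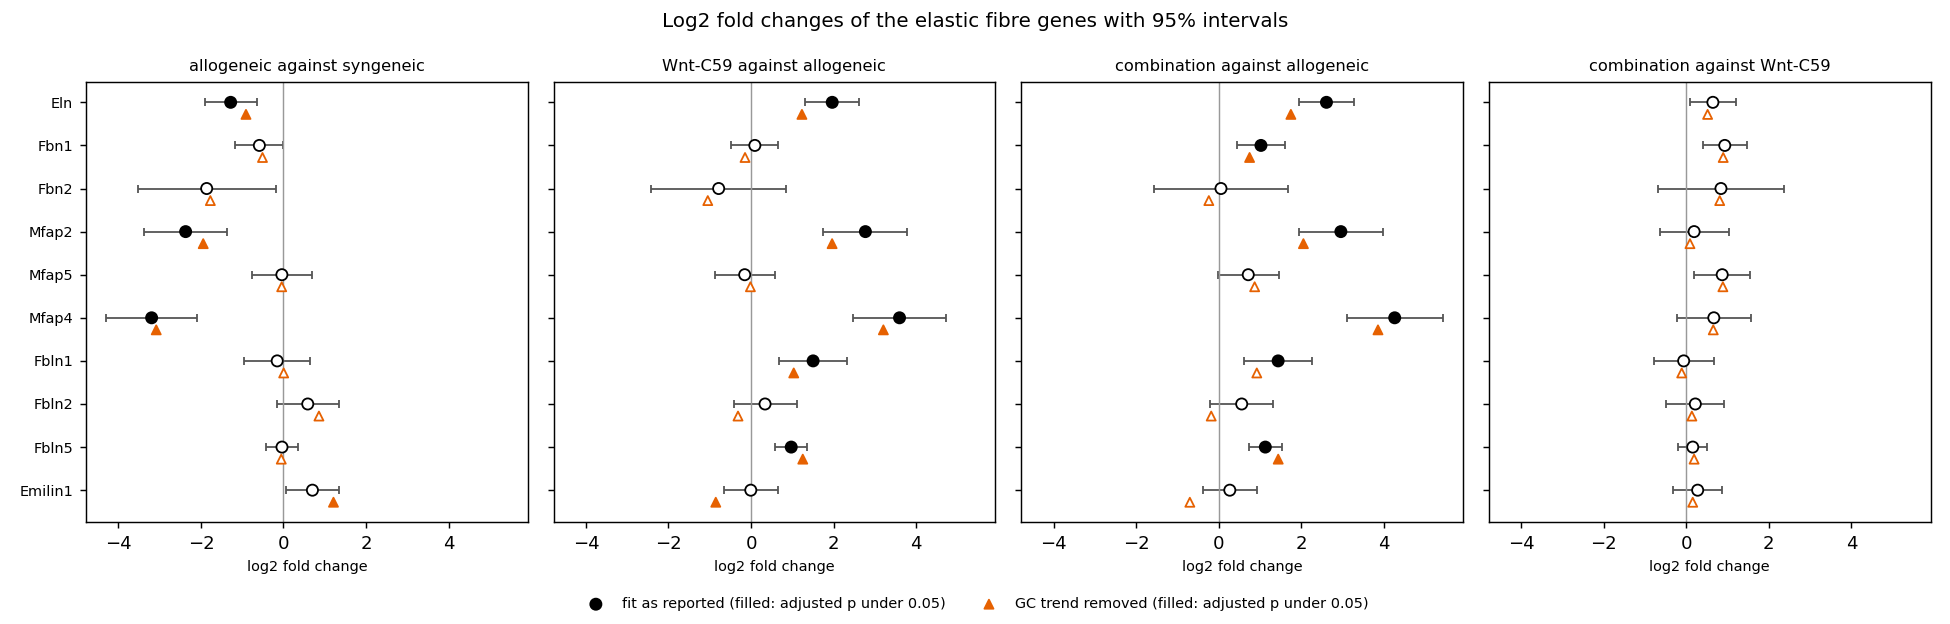
Log2 fold changes of the members in the main comparisons, with bars for 95% intervals and separate marks for fits with and without the GC trend. Mfap4, Mfap2 and Eln lie left of 0 for allogeneic against syngeneic skin and right of 0 for each treated group against allogeneic skin, where Mfap4 reaches 4.26 with the combination.

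The combination was set against Wnt-C59 alone, which asks what belumosudil added. No member passed, and over all tested genes only 43 did, or 0.231%. At an unadjusted p under 0.05 there were 3 members, Fbn1, Mfap5 and Eln, and 3892 genes in all, while DESeq2 called 1 member, Fbn1 (adjusted p = 0.0092), and 8.13% of all tested genes, and limma-voom called 0 members and 0.349% of all tested genes. All combination libraries lay above all Wnt-C59 libraries for 2 members, Eln and Fbn1, which was also so for 5.81% of all tested genes.

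Eln averaged 223 ± 55.1 CPM in the combination and 142 ± 33.3 CPM under Wnt-C59 (SD, n = 4 each), a log2 difference of 0.65 with a 95% interval of 0.08 to 1.21 (adjusted p = 0.19). Without combination 4 and 5 it was 0.47. Fbn1 averaged 172 ± 41.9 CPM in the combination and 90.0 ± 26.4 CPM under Wnt-C59, a log2 difference of 0.93 with an interval of 0.40 to 1.47 (adjusted p = 0.086), and 1.11 without combination 4 and 5. For Mfap5 the averages were 36.8 ± 10.8 CPM in the combination and 20.1 ± 8.03 CPM under Wnt-C59, with a log2 difference of 0.87 and an interval of 0.20 to 1.54 (adjusted p = 0.15).

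Other members had intervals on both sides of 0. The narrowest was that of Fbln5, −0.20 to 0.51 around 0.16, and Fbn2 had the widest, −0.68 to 2.36 around 0.84. Mfap4 differed by 0.67 (−0.23 to 1.57) and Mfap2 by 0.19 (−0.64 to 1.03). The remaining 3, Fbln1, Fbln2 and Emilin1, differed by −0.06, 0.22 and 0.28.

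Treated skin was also set against syngeneic vehicle skin, which shows where the members stood relative to skin without the allogeneic reaction. Fbln1 and Fbln5 lay above the syngeneic level in both treated groups and Fbn2 lay below it, while Eln lay above it in the combination and passed as higher under Wnt-C59 with overlapping libraries. In the combination 7 of 10 members passed, 6 higher and 1 lower, where 54.1% of all tested genes passed, 26.9% higher and 27.2% lower. Under Wnt-C59 5 of 10 passed, 4 higher and 1 lower, where 53.1% of all tested genes passed, 26.0% higher and 27.0% lower. These comparisons also cross the split between treated and vehicle libraries, and both use the same 4 syngeneic libraries.

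Eln averaged 223 ± 55.1 CPM in the combination and 142 ± 33.3 CPM under Wnt-C59, against 88.4 ± 37.3 CPM in syngeneic skin. The log2 fold changes were 1.33 (adjusted p = 0.00081) for the combination and 0.69 (adjusted p = 0.041) for Wnt-C59, and 0.84 (adjusted p = 0.011) and 0.32 (adjusted p = 0.28) with the GC trend removed. The Wnt-C59 libraries of Eln overlapped the syngeneic ones through syngeneic 3, and that call was kept in 2 of 8 fits that left out a library and in 3 of 9 other settings. It was lost on leaving out any of Wnt-C59 2, 4 and 5 or syngeneic 1, 2 and 4 (adjusted p = 0.12 at most), with RLE size factors (adjusted p = 0.05002), with no filter on low counts (adjusted p = 0.065), with an adipocyte score (adjusted p = 0.099) or a skeletal muscle score (adjusted p = 0.063) as covariate and when only the libraries of both groups were fitted (adjusted p = 0.066). Fbln5 averaged 72.5 ± 4.07 CPM in the combination and 65.0 ± 13.0 CPM under Wnt-C59, against 33.9 ± 4.18 CPM in syngeneic skin, without overlap, at log2 fold changes of 1.09 (adjusted p = 0.0001) and 0.94 (adjusted p = 0.00039). Fbln1 was higher by 1.29 (adjusted p = 0.0062) and 1.35 (adjusted p = 0.0051), also without overlap. With the GC trend removed these were 1.39 and 1.1998 for Fbln5 and 0.93 and 1.04 for Fbln1, and all 4 passed.

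Fbn2 averaged 2.24 ± 1.52 CPM in the combination and 1.25 ± 1.60 CPM under Wnt-C59, against 7.82 ± 1.54 CPM in syngeneic skin. Its treated libraries all lay below the syngeneic ones, at log2 fold changes of −1.80 (adjusted p = 0.041) and −2.64 (adjusted p = 0.0077). The first was −2.63 (adjusted p = 0.030) without combination 4 and 5 and failed on leaving out combination 2, 3 or 4 or any syngeneic library (adjusted p = 0.10 at most), with no filter on low counts (adjusted p = 0.080) and with an adipocyte score as a covariate (adjusted p = 0.12). The second was −4.03 without Wnt-C59 1. Fbln2 rose by 1.15 (adjusted p = 0.0095) with the combination and by 0.93 (adjusted p = 0.029) with Wnt-C59, but with the GC trend removed neither passed, at 0.68 (adjusted p = 0.1) and 0.54 (adjusted p = 0.18). Its Wnt-C59 libraries overlapped the syngeneic ones, and that call was kept in 3 of 8 fits that left out a library. It was also lost with no filter on low counts (adjusted p = 0.059). Emilin1 and Mfap4 passed in the combination, at 0.97 (adjusted p = 0.0097) and 1.07 (adjusted p = 0.045), and neither did with the GC trend removed (adjusted p = 0.17 and 0.12). The Emilin1 call was also lost with an adipocyte score as a covariate (adjusted p = 0.055). The Mfap4 call was also lost on leaving out any combination library or syngeneic 1, 2 or 4, and without combination 4 and 5 (adjusted p = 0.11 in that last fit). Under Wnt-C59 Emilin1 was at 0.70 (adjusted p = 0.051) and Mfap4 at 0.40 (adjusted p = 0.43), and neither passed. Emilin1 did pass there with DESeq2 (adjusted p = 0.045) and limma-voom (adjusted p = 0.035). Mfap2, Mfap5 and Fbn1 did not pass in either group. With the GC trend removed, Mfap5 passed in the combination, at 0.83 (adjusted p = 0.049), and Fbn1 under Wnt-C59, at −0.65 (adjusted p = 0.043). Mfap2 stood at 31.6 ± 10.7 CPM in the combination and 27.7 ± 9.42 CPM under Wnt-C59, against 21.0 ± 8.33 CPM in syngeneic skin.

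To compare levels between members, CPM were divided by the length of the longest transcript of each gene, in kb. On that scale Mfap4 was the most abundant member and Eln came next in the combination, under Wnt-C59 and in syngeneic skin, whereas in allogeneic vehicle skin Fbln2 led and Mfap4 was among the last. Fbn2 was the least abundant in all 4 groups. Mfap4 averaged 98.7 ± 11.9 CPM per kb in the combination, 62.1 ± 44.8 CPM per kb under Wnt-C59, 5.14 ± 1.66 CPM per kb in allogeneic vehicle skin and 47.0 ± 18.1 CPM per kb in syngeneic skin. Summed over the members, the level was 305 ± 32.0 CPM per kb in the combination, 224 ± 68.2 under Wnt-C59, 84.9 ± 15.5 in allogeneic vehicle skin and 150 ± 50.7 in syngeneic skin (SD). The combination libraries lay at 260 to 335 and the allogeneic ones at 67.5 to 97.4, while the Wnt-C59 and syngeneic libraries overlapped.

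The mix of members also differed between groups. Mfap4 made up 31.6% to 33.4% of the summed level in the combination and 15.8% to 42.2% under Wnt-C59, against 3.97% to 10.2% in allogeneic vehicle skin and 26.9% to 35.3% in syngeneic skin. Fbln2 held 17.96% to 39.3% in allogeneic vehicle skin and less than 20% in all libraries of the other groups. Eln relative to Fbn1, per kb, was 2.64 to 7.02 in the combination and 3.19 to 7.07 under Wnt-C59, against 1.24 to 1.49 in allogeneic vehicle skin and 1.94 to 2.34 in syngeneic skin. This ratio of elastin core to microfibril scaffold RNA thus did not overlap between allogeneic and syngeneic skin, or between treated and vehicle skin. How often other pairs of genes do so was not computed. The ratio was not corrected for the GC trend along the split between treated and vehicle libraries, and GC content was 58.8% for Eln and 52.3% for Fbn1. Lengths change the order of the members: by the union of exons, Eln took place 3 in the combination, 5 under Wnt-C59, 8 in allogeneic and 4 in syngeneic skin.

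**Figure D3:**
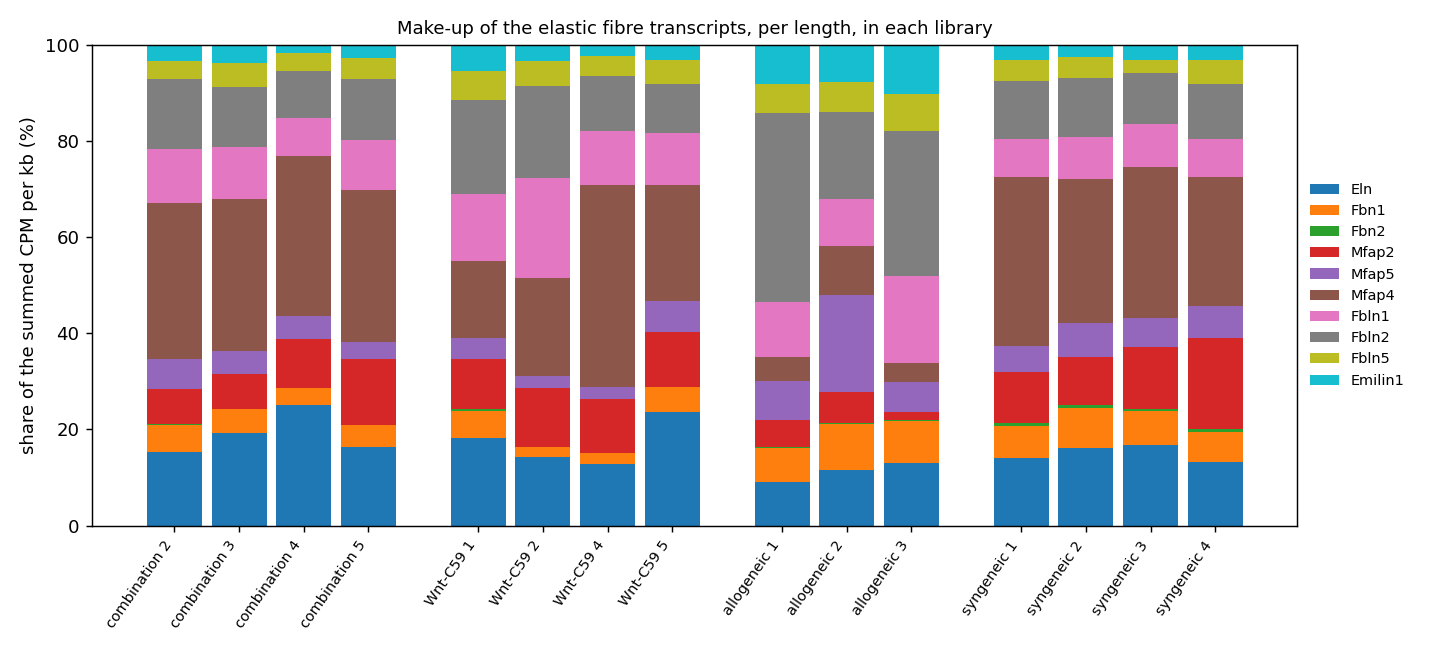
Composition of the summed per-length level of the members, with libraries on one axis and the share of each member, in percent, on the other. Mfap4 takes 31.6% to 33.4% of the combination libraries and 3.97% to 10.2% of the allogeneic vehicle libraries, where Fbln2 takes up to 39.3%.

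Genes that act with the members were read from 9 lists of their pathway. Their counts stand beside the shares of all tested genes that passed, which were 27.1% higher and 27.4% lower for the combination and 24.6% higher and 26.2% lower for Wnt-C59, each against allogeneic vehicle skin, and 14.6% higher and 15.1% lower for allogeneic against syngeneic skin. The list closest to them, of fibulin relatives and latent TGF-beta binding proteins (LTBPs), had 6 of its 9 genes higher and 0 lower in the combination and likewise under Wnt-C59, each against allogeneic vehicle skin, and 0 higher and 4 lower in allogeneic against syngeneic skin. Its median log2 fold change was 1.74 for the combination, 1.61 for Wnt-C59 and −0.82 for allogeneic against syngeneic skin. Ltbp4, which directs fibulin-5 onto microfibrils, averaged 342 ± 73.8 CPM in the combination and 424 ± 146 CPM under Wnt-C59, against 70.3 ± 23.3 CPM in allogeneic vehicle skin, with log2 fold changes of 2.28 (adjusted p = 3.2e-05) and 2.59 (adjusted p = 1.8e-05), and of 1.25 (adjusted p = 0.0021) and 1.71 (adjusted p = 0.00032) with the GC trend removed. In allogeneic against syngeneic skin Ltbp4 was at −1.03 (adjusted p = 0.014), a call lost with the GC trend removed (adjusted p = 0.15), with an adipocyte score as a covariate (adjusted p = 0.11) and without allogeneic 1 (adjusted p = 0.065). Ltbp3, a carrier of latent TGF-beta, averaged 54.2 ± 11.0 CPM in allogeneic and 163 ± 27.3 CPM in syngeneic skin, a log2 fold change of −1.59 (adjusted p = 0.00035). It rose by 1.98 (adjusted p = 2.7e-05) with the combination and by 1.61 (adjusted p = 0.00014) with Wnt-C59, and by 1.16 and 0.91 with the GC trend removed. Without combination 4 and 5, 7 of the 9 were higher in the combination than in allogeneic vehicle skin, where 47.9% of all tested genes passed in either direction.

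The crosslinking enzymes moved apart. Of 6 genes, 2 rose and 0 fell in allogeneic against syngeneic skin, 2 rose and 2 fell with the combination and 1 rose and 2 fell with Wnt-C59, the last 2 against allogeneic vehicle skin. Lox, the lysyl oxidase that crosslinks elastin and collagen, averaged 83.2 ± 29.2 CPM in allogeneic and 25.8 ± 5.00 CPM in syngeneic skin, a log2 fold change of 1.69 (adjusted p = 0.0011), the side opposite to Eln. It averaged 15.6 ± 2.83 CPM in the combination and 10.9 ± 4.46 CPM under Wnt-C59, log2 fold changes of −2.42 (adjusted p = 3.4e-05) and −2.94 (adjusted p = 1.3e-05) against allogeneic vehicle skin. Loxl1, the family member that binds fibulin-5 at elastic fibres, went the other way. It averaged 155 ± 48.0 CPM in the combination and 87.2 ± 23.4 CPM under Wnt-C59, against 28.4 ± 3.21 CPM in allogeneic vehicle skin, log2 fold changes of 2.45 (adjusted p = 2.8e-05) and 1.62 (adjusted p = 0.00057). Without the GC trend these were 1.49 (adjusted p = 0.00089) and 0.77 (adjusted p = 0.038), and those of Lox were −1.72 (adjusted p = 0.00047) and −2.34 (adjusted p = 7.6e-05). Loxl1 was also above syngeneic vehicle skin in both treated groups. The log2 fold changes were 2.32 (adjusted p = 1.9e-05) for the combination and 1.497 (adjusted p = 0.00047) for Wnt-C59. Loxl1 did not pass between allogeneic and syngeneic skin, so its difference lay along the split of treated and vehicle libraries. Atp7a, the copper pump that loads lysyl oxidases, averaged 0.932 ± 0.283 CPM in the combination and 0.665 ± 0.369 CPM under Wnt-C59, against 32.1 ± 7.57 CPM in allogeneic vehicle skin, with log2 fold changes of −5.11 (adjusted p = 6.5e-06) and −5.58 (adjusted p = 6.1e-06), and of −4.51 and −5.06 with the GC trend removed. Against syngeneic vehicle skin Atp7a was also lower, at −4.84 (adjusted p = 7.9e-06) for the combination and −5.31 (adjusted p = 1e-05) for Wnt-C59. It did not pass between allogeneic and syngeneic skin. Its difference thus lay along the split between treated and vehicle libraries, where treatment and any batch cannot be told apart.

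**Figure D4:**
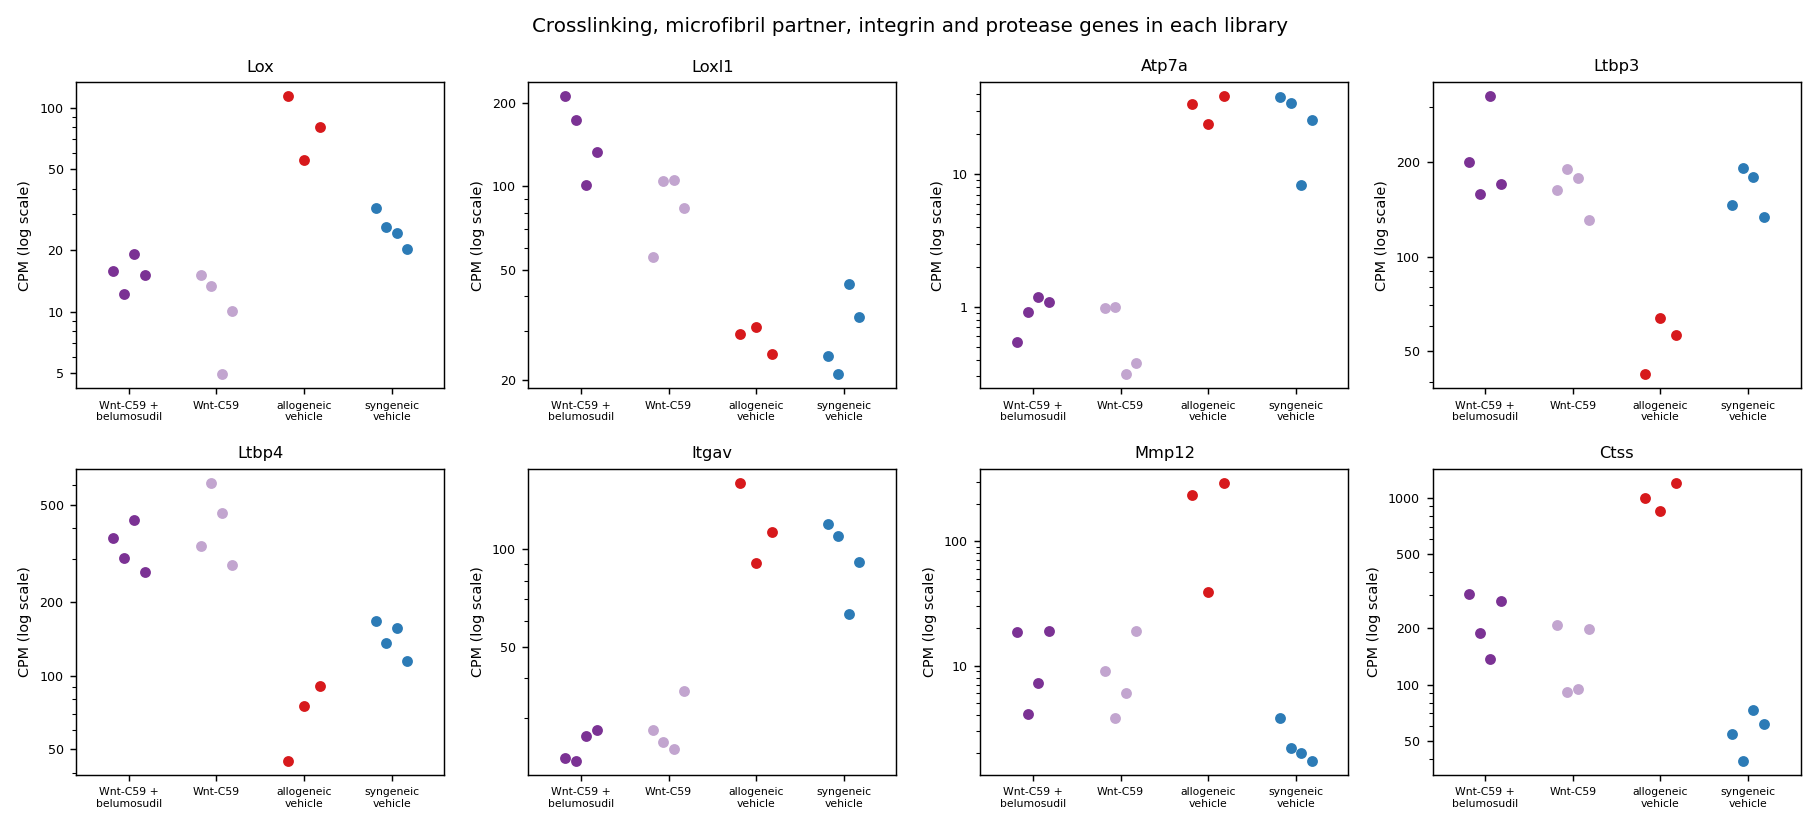
Each panel plots CPM on a log scale, with a point per library in the combination, Wnt-C59, allogeneic vehicle and syngeneic vehicle groups, for partners of the members. Lox averages 15.6 CPM in the combination and 83.2 CPM in allogeneic vehicle skin, while Loxl1 averages 155 CPM in the combination and 28.4 CPM in allogeneic vehicle skin.

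Proteases able to cut elastin were higher in allogeneic than in syngeneic skin in 5 of 10 tested genes, and 0 were lower. Mmp7 was at 0 counts in all libraries. Ctss, the cathepsin of macrophages and other antigen-presenting cells, averaged 1019 ± 174 CPM in allogeneic and 57.0 ± 14.4 CPM in syngeneic skin, and Mmp12, the macrophage elastase, averaged 189 ± 133 CPM in allogeneic and 2.42 ± 0.945 CPM in syngeneic skin. Their log2 fold changes were 4.16 (adjusted p = 5.3e-06) and 6.28 (adjusted p = 0.0002). Against allogeneic vehicle skin 3 of the 10 fell and 2 rose with the combination, and 3 fell and 1 rose with Wnt-C59. Ctss averaged 228 ± 78.9 CPM in the combination and 148 ± 63.8 CPM under Wnt-C59, log2 fold changes of −2.16 (adjusted p = 0.00013) and −2.78 (adjusted p = 2.9e-05), and −1.72 and −2.41 with the GC trend removed. The log2 fold changes of Mmp12 were −3.94 (adjusted p = 0.0008) and −4.31 (adjusted p = 0.00058), or −2.77 and −3.36 with the GC trend removed. With an adipocyte score as a covariate they were −4.05 and −4.40 and did not pass (adjusted p = 0.12 and 0.080). Beside these genes, 14 of 15 macrophage markers rose in allogeneic against syngeneic skin, and 11 of 15 fell with the combination and 15 of 15 with Wnt-C59 against allogeneic vehicle skin. The part of these cells in the protease levels was not tested.

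Integrins that bind fibrillins and fibulins fell in 5 of 8 genes with the combination and in 6 of 8 with Wnt-C59, each against allogeneic vehicle skin, and 1 rose in each. Itgav, the alpha-v chain, averaged 24.7 ± 2.68 CPM in the combination and 28.4 ± 5.62 CPM under Wnt-C59, against 121 ± 35.5 CPM in allogeneic vehicle skin. Its log2 fold changes were −2.30 (adjusted p = 5.7e-06) and −2.10 (adjusted p = 1.2e-05), and −1.55 (adjusted p = 4e-05) and −1.45 (adjusted p = 6.2e-05) with the GC trend removed. Against syngeneic vehicle skin Itgav was also lower, at −1.96 (adjusted p = 1.1e-05) for the combination and −1.76 (adjusted p = 3e-05) for Wnt-C59, along the same split of treated and vehicle libraries. In allogeneic against syngeneic skin 2 of 8 rose, among them Itga5, the fibronectin receptor chain, at 1.38 (adjusted p = 0.0016), and 0 fell. With an adipocyte score as a covariate Itga5 was at 1.18 (adjusted p = 0.056).

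Matrix neighbours of elastic fibres rose in 7 of 10 genes with the combination and in 5 with Wnt-C59, with 1 and 2 lower, and in allogeneic against syngeneic skin 1 of 10 rose and 4 fell. Col6a1, a chain of the beaded collagen that runs beside microfibrils, averaged 579.8 ± 187 CPM in the combination and 408 ± 37.1 CPM under Wnt-C59, against 155 ± 17.2 CPM in allogeneic vehicle skin, log2 fold changes of 1.91 and 1.40, and of 1.22 and 0.80 with the GC trend removed. Col15a1, a basement membrane collagen, averaged 28.9 ± 4.45 CPM in allogeneic and 112 ± 31.3 CPM in syngeneic skin, a log2 fold change of −1.95 (adjusted p = 7.4e-05). Col8a1, a short-chain collagen of vessel walls, was the 1 that rose, at 1.67 (adjusted p = 0.0097) in allogeneic against syngeneic skin. It fell by 2.81 (adjusted p = 0.00014) with the combination and by 2.08 (adjusted p = 0.0013) with Wnt-C59 on the log2 scale. Without allogeneic 2 the first of these values was 1.05 and did not pass (adjusted p = 0.076), and the others were −2.13 and −1.42.

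The 4 remaining lists were of mixed direction. Of 8 ADAMTS and ADAMTS-like genes that act on microfibrils, 1 rose and 2 fell with the combination, 4 rose and 1 fell with Wnt-C59, and 1 rose and 1 fell in allogeneic against syngeneic skin. With the GC trend removed 0 rose and 1 fell with the combination, and 1 rose and 0 fell with Wnt-C59, where 43.7% and 40.4% of all tested genes passed in either direction. Of the 4 genes of the EMILIN and multimerin list, 2 rose and 1 fell in allogeneic against syngeneic skin, and 1 rose and 1 fell in each treated group against allogeneic vehicle skin. Mmrn1 and Mmrn2, multimerins of vessel-lining cells and platelets, rose in allogeneic against syngeneic skin, by 1.29 (adjusted p = 0.0024) and 1.25 (adjusted p = 0.00078). Emilin3 averaged 0.331 CPM in allogeneic and 0.883 CPM in syngeneic skin, and its fall, −1.39 (adjusted p = 0.048), was lost with the GC trend removed (adjusted p = 0.14). The call was also lost with limma-voom (adjusted p = 0.13) and with no filter on low counts (adjusted p = 0.076). Neither an adipocyte nor a skeletal muscle score as covariate kept it (adjusted p = 0.096 and 0.071). It was lost as well on leaving out any single library except syngeneic 4 (adjusted p = 0.17 at most). Mmrn1 fell by 1.70 (adjusted p = 0.00013) with the combination and by 0.86 (adjusted p = 0.014) with Wnt-C59, which became −0.78 (adjusted p = 0.0198) and −0.07 (adjusted p = 0.85) with the GC trend removed. Emilin3 was the 1 that rose in each, by 1.71 (adjusted p = 0.0099) and 2.33 (adjusted p = 0.0015), and with the GC trend removed it was at 0.85 (adjusted p = 0.18) and 1.57 (adjusted p = 0.023). Of 6 tested protease inhibitors, 1 rose and 0 fell with the combination and 2 rose and 1 fell with Wnt-C59. In allogeneic against syngeneic skin 1 rose, Slpi, the secretory leukocyte peptidase inhibitor, by 5.14 (adjusted p = 0.0028), and by 3.47 without allogeneic 1. That call was lost with an adipocyte score as a covariate (adjusted p = 0.19) and with the replicate block (adjusted p = 0.084). Tgfb1, which encodes the TGF-beta that LTBPs hold in the matrix, rose in allogeneic against syngeneic skin by 1.15 (adjusted p = 0.00021). It rose further with the combination, by 0.66 (adjusted p = 0.0049) against allogeneic vehicle skin, and that call was lost with the GC trend removed (adjusted p = 0.10) and with an adipocyte score as a covariate (adjusted p = 0.088).

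Markers of fibroblasts and smooth muscle cells, which make elastic fibres, and of adipocytes were read in the same comparisons. Of all tested genes, 27.1% were higher and 27.4% lower for the combination, and 24.6% and 26.2% for Wnt-C59, each against allogeneic vehicle skin. For allogeneic against syngeneic skin these shares were 14.6% and 15.1%. Of 15 fibroblast markers, 9 fell and 0 rose in allogeneic against syngeneic skin, and 10 rose with the combination and 9 with Wnt-C59 against allogeneic vehicle skin, with 0 lower. None of the 15 was at 0 in any group, and their summed level was 4643 to 7989 CPM in the combination, 4153 to 7049 CPM under Wnt-C59, 1772 to 2788 CPM in allogeneic vehicle skin and 4527 to 10775 CPM in syngeneic skin. The collagen genes Col1a1, Col1a2 and Col3a1 made up much of this sum. Pdgfra overlapped between groups, at 15.1 to 56.9 CPM in allogeneic vehicle skin and 23.5 to 52.8 CPM in the combination. Of 12 smooth muscle and pericyte markers, 7 rose and 1 fell with the combination, 9 rose and 1 fell with Wnt-C59, and 2 rose and 3 fell in allogeneic against syngeneic skin. Their summed level was 1291 to 3252 CPM in the combination, 2116 to 3596 CPM under Wnt-C59, 1650 to 3490 CPM in allogeneic vehicle skin and 1071 to 1330 CPM in syngeneic skin. Des, the desmin gene that skeletal muscle also uses, made up much of this sum, and without it the sum was 1180 to 1518 CPM in the combination, 1201 to 1702 CPM under Wnt-C59, 742 to 974.9 CPM in allogeneic vehicle skin and 814 to 1143 CPM in syngeneic skin. Adipocyte markers rose in 11 of 12 genes with the combination and in 10 of 12 with Wnt-C59, and 3 of 12 fell in allogeneic against syngeneic skin. Their summed level was 3257 to 4378 CPM in the combination, 1579 to 4478 CPM under Wnt-C59, 776 to 1472 CPM in allogeneic vehicle skin and 1458 to 2718 CPM in syngeneic skin. Markers of other cells were counted as well. All 14 hair follicle markers in the table fell in allogeneic against syngeneic skin, at summed levels of 45.9 to 61.4 CPM in allogeneic and 6132 to 17039 CPM in syngeneic skin, and Krt72 was at 0 in allogeneic skin. With the combination 12 of the 14 rose and 1 fell against allogeneic vehicle skin. Without combination 4 and 5 it was 5 and 2, where 47.9% of all tested genes passed in either direction. With Wnt-C59 1 rose and 1 fell, at 109 to 129 CPM. Endothelial markers rose in 8 of 10 genes and T cell markers in 11 of 12 in allogeneic against syngeneic skin. Against allogeneic vehicle skin, 3 of the 10 endothelial markers rose and 1 fell with the combination, and 4 rose with Wnt-C59. Of the 12 T cell markers 1 rose and 5 fell with the combination, and 8 fell with Wnt-C59. The part of these cells in the members' values was not tested.

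**Figure D5:**
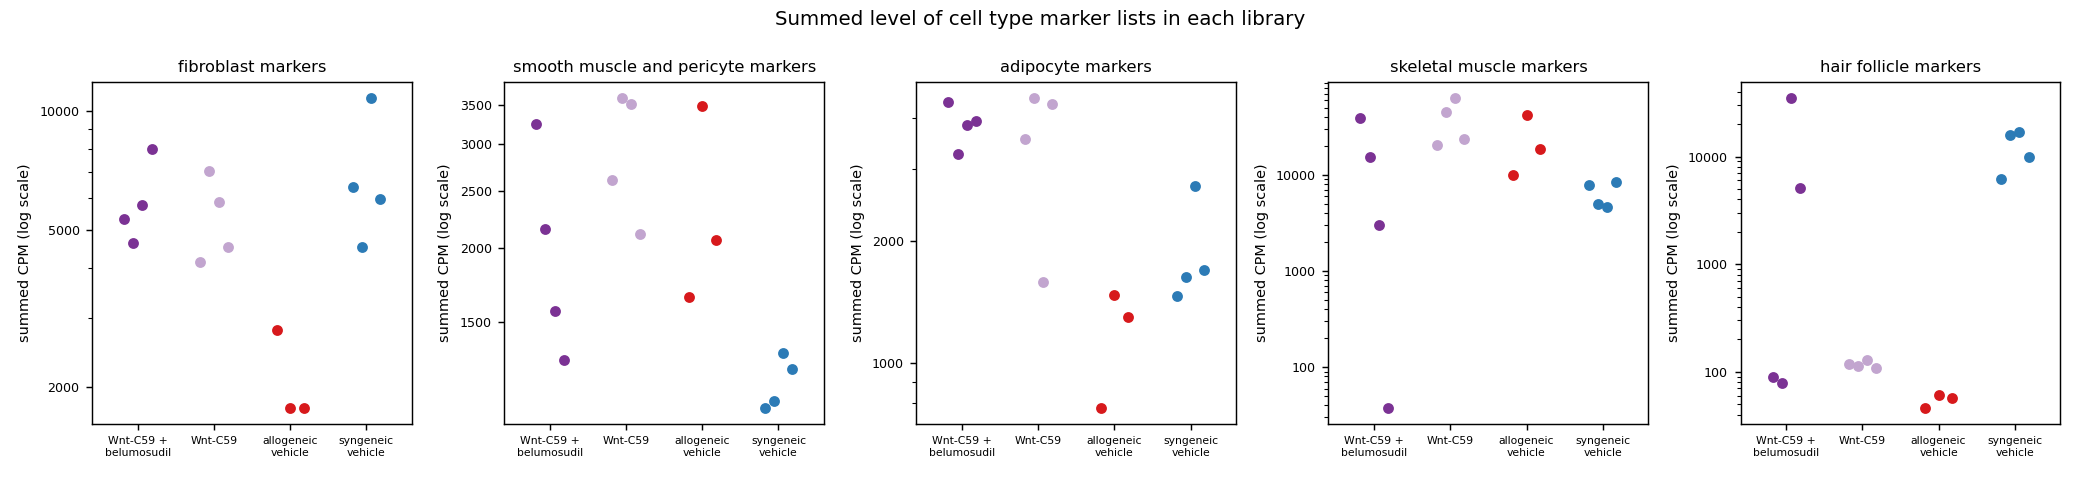
Summed CPM of marker lists on a log scale, with a point per library in the combination, Wnt-C59, allogeneic vehicle and syngeneic vehicle groups. The fibroblast marker sum, much of it from collagen genes, is lowest in allogeneic vehicle skin, at 1772 to 2788 CPM. Hair follicle markers spread from 78.7 to 35141 CPM within the combination.

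The genes whose pattern over the 15 libraries was most like that of Eln were sought among 12047 genes, by the root mean square difference of log2 CPM centred on each gene's own mean. The closest were Creb3l1 at 0.349, Egr2 at 0.355, C1qtnf12 at 0.365, Pigt at 0.373 and Zfp296 at 0.385. Creb3l1, a transcription factor of the endoplasmic reticulum, averaged 55.2 CPM in the combination, 45.2 CPM under Wnt-C59, 13.7 CPM in allogeneic vehicle skin and 24.9 CPM in syngeneic skin. Among the members, Fbln1 came nearest to Eln, at 0.597 and rank 599, followed by Fbln5 at 0.609 and rank 693. Mfap2 held rank 2065, Mfap4 rank 3586 and Emilin1 rank 4817. This measure grows with a difference in the size of a change, even where the direction is shared. Between allogeneic and syngeneic skin, and with each treatment against allogeneic vehicle skin, Mfap2 and Mfap4 changed in the direction of Eln but by more. Fbln1 and Fbln5 did not pass between allogeneic and syngeneic skin.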

How the data were processed

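Skin RNA of 4 groups of mice was sequenced in 15 libraries. As deposited, and per the file headers, the values are estimated counts by gene under versioned Ensembl identifiers, many of them with fractions, and they are not scaled for depth. According to the submitters' processing notes, FastQC, Trim Galore, HISAT2 and featureCounts were used with genome build GRCm39. Which tool wrote the table and whether reads were counted by strand are not given in the sources used here, so overlapping and antisense genes cannot be told apart.

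Deposited estimated counts were rounded, although whole counts had been assumed when the design was set. TMM scaling and the filterByExpr rule over 4 groups were applied, and edgeR 4.0.16 in R 4.3.3 fitted a robust quasi-likelihood model with group as the only term to all 15 libraries. A gene was called at a Benjamini-Hochberg adjusted p under 0.05 over the 18651 tested genes of a comparison. The steps were tested on simulated data with 200 genes changed in a comparison. Of true 2-fold changes 22% to 26% were called, and of true 4-fold changes 62% to 73%. The data differed from this setting, since at least 29.8% of tested genes passed in every comparison except the combination against Wnt-C59. With so few genes changed the adjusted p threshold is stricter, so these shares may be too low for those comparisons. A gene that did not pass may still differ. Intervals are 95% intervals of the log2 fold change. DESeq2 1.42.0 and limma-voom (limma 3.58.1) were alternatives, as were other scalings, no filter on low counts, adipocyte and skeletal muscle scores as covariates, fits of the compared groups alone, a replicate block, each library left out, and offsets that remove a smooth trend on GC content (6 degrees of freedom). The fits without combination 4 and 5, and the fit that serves as partner of the block, were chosen after seeing the data.

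Symbols were found for 51276 of the 56059 identifiers. GENCODE M21 for build GRCm38, which is not the build of the study, gave symbols, transcript lengths and GC content (known for 97.7% of tested genes), and promoters are from RefSeq on GRCm38.p6. Elastin-like patterns were sought among tested genes averaging 5 CPM or more, leaving out immune receptor segments, predicted genes and pseudogenes. All members are named in each comparison. Of each pathway list, up to 4 called genes in order of adjusted p could be named, and the text names part of them. The members and lists were chosen with earlier results of these data known. Columns used for treated libraries carry numbers other than those of the sample titles, and 0 columns of other series were present.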

Additional observations from a re-analysis of the deposited data

Results flagged for a closer look

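A library that lay far from the others of its group, by Dixon's test at the 95% level, was found in 3 of 30 sets of a member and a group of 4 libraries, where chance gives about 1 in 20. Eln was at 305 CPM in combination 4, and the other combination libraries lay at 192 to 197 CPM. Combination 4 was also the library with the highest hair follicle marker level. Mfap5 was at 32.1 CPM in Wnt-C59 5, and the other Wnt-C59 libraries lay at 14.9 to 17.6 CPM. Mfap5 was at 33.0 CPM in syngeneic 3, and the other syngeneic libraries lay at 19.3 to 20.0 CPM. Syngeneic 3 was also the highest syngeneic library for every other member except Fbn2 and Fbln5. Its summed fibroblast markers were the highest of that group too, at 10775 CPM against 4527 to 6418 CPM.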

How the results depend on the processing

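Over settings other than leaving out a library, 529 of 590 fold changes of members kept their direction and their side of the threshold, 22 lost their call, 17 gained one and 22 turned direction. No fold change that turned had been called, and the cause of these changes was not tested. With upper quartile scaling, no filter on low counts and limma-voom, Emilin1 in Wnt-C59 against allogeneic skin was 0.046, 0.010 and 0.019. With limma-voom Fbn2 was −0.12 (combination against allogeneic) and Fbln1 0.033 (combination against Wnt-C59). With an adipocyte score Mfap5 was 0.48 (allogeneic against syngeneic), Fbn1 −0.37 (Wnt-C59 against allogeneic), and Fbn2 −0.38 and Mfap5 −0.21 (combination against allogeneic). With a skeletal muscle score Fbn2 was −0.85 (combination against allogeneic) and −0.18 (combination against Wnt-C59), where Mfap2 was −0.13. With the GC trend removed Fbln1 was 0.0056 (allogeneic against syngeneic), Fbn1 −0.15 and Fbln2 −0.32 (Wnt-C59 against allogeneic), and Fbn2 −0.24, Emilin1 −0.70 and Fbln2 −0.18 (combination against allogeneic). Without combination 4 and 5 Fbn2 was −0.81 against allogeneic skin, and −0.049 against Wnt-C59, where Fbln1 was 0.049 and Mfap2 −0.22. Leaving out single libraries gave −0.43 to 0.24 for Mfap5, −0.46 to 0.14 for Fbln1 and −0.14 to 0.17 for Fbln5 (allogeneic against syngeneic), −0.21 to 0.16 for Emilin1, −0.47 to 0.26 for Mfap5, −0.0095 to 0.74 for Fbln2 and −0.10 to 0.24 for Fbn1 (Wnt-C59 against allogeneic), −0.51 to 0.41 for Fbn2 (combination against allogeneic), −0.0016 to 0.35 for Mfap2 and −0.23 to 0.29 for Fbln1 (combination against Wnt-C59), and −0.21 to 0.68 for Mfap4 and −0.51 to 0.031 for Mfap5 (Wnt-C59 against syngeneic). Members called in Wnt-C59 against syngeneic skin numbered 3 with no filter on low counts, where 28.8% of all tested genes passed, and 3 to 6 on leaving out single libraries, where 44.7% to 53.6% passed, and DESeq2 called 1 member in the combination against Wnt-C59. With vehicle libraries 1 to 3 blocked by replicate number, 3 members and 16.6% of all tested genes were called in allogeneic against syngeneic skin, and 4 members and 21.2% of genes without the block. With it Mfap2 was lost (adjusted p = 0.051) and Fbn2 passed (adjusted p = 0.0099). Deviations of libraries with the same number correlated at −0.065, −0.091 and −0.030, and those with different numbers at −0.0048 to 0.093. No pairing showed, but deviations from means of 3 libraries cannot decide whether the numbers mark pairs. No paired analysis was possible because the treated columns carry no label replicate numbers, for all comparisons with treated skin. Depth limits Fbn2 most, at under 10 CPM in all libraries.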
